A study of Danio rerio with 6 samples.

Results

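Photoreceptors turn light into an electrical signal in a stack of membrane discs, the outer segment. Light-activated opsin switches on the G protein transducin, transducin releases a cGMP phosphodiesterase from its inhibitory subunit, and the fall in cGMP closes the cation channels of the cell. Opsin kinases and arrestins end the signal, guanylate cyclases and their calcium-dependent activators restore cGMP, and the visual cycle in photoreceptors, retinal pigment epithelium and Müller glia renews the chromophore. Rods and cones use separate copies of many of these proteins, and zebrafish have further copies from the teleost genome duplication. In zebrafish larvae, cones serve vision before rods do.

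The genes described here are those of the photoreceptor cascade, the outer segment discs and the visual cycle, without the opsins. They were chosen by name, with earlier results of these data known. Of the 60 symbols listed, 48 paired with a row among the 15455 RefSeq transcripts counted in the series. One of them, guca1aa, was paired through its older symbol guca1a. The 12 genes without a row, among them all 7 of the channel and exchanger step (cnga1, cnga3a, cnga3b, cngb1a, cngb3.1, slc24a1 and slc24a2), were not analysed here. Of the 48 genes, 8 are rod copies and 12 are cone copies by the cell class in which the mammalian orthologue or the zebrafish copy is known to act, and 28 were left in neither class. For gngt2a and pde6ha, which have several transcripts, the transcript with the larger mean count stands for the gene.

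RNA was taken from the head and trunk of zebrafish (Danio rerio) embryos at 72 hpf, with the tail removed for genotyping. There were 3 pools of 8 wild-type embryos (WT in the labels) and 3 pools of 8 double homozygous hnrnpul1/1l mutants (DKO). The mutants carry CRISPR insertions in both genes, hnrnpul1 ca54 and hnrnpul1l ca52 where the study does not say otherwise, and had mothers that were mutant for hnrnpul1l, while the wild types are described both as siblings and as offspring of hnrnpul1l heterozygotes. Parentage may therefore differ between the groups along with genotype. Each library is a pool, so differences between embryos are not seen, and in such bulk RNA fewer photoreceptors and less RNA per photoreceptor cannot be told apart. Total estimated counts were 52250779 to 61266049 in wild-type and 40891309 to 62580215 in mutant libraries. After the scaling of the fit, 1 CPM (a count scaled to a common library size, comparable between libraries) stood for 37.3 to 66.95 counts. The targeted gene hnrnpul1 had 118 to 127 CPM in wild-type and 22.1 to 47.7 CPM in mutant pools, which fits the labels (log2 fold change -1.67, adjusted p = 0.328), and hnrnpul1l was not analysed here.

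In hnrnpul1/1l mutants, most photoreceptor genes had a lower mean than in wild types, and by their median the cone copies were further down than the rod copies. All 48 genes passed the filter on low counts, and 43 of them had a lower mean in mutants, against 50.9% of the 13553 transcripts tested. The groups were separated, with all mutant pools under all wild-type pools, for 24 of the 48, or 50.0%, where 9.08% of all transcripts were so separated. The reverse held for 1 gene, unc119b, against 7.71% of all transcripts, and the groups overlapped for 23 genes, against 83.2%. At a threshold of 0.05 on the adjusted p, the quasi-likelihood test of edgeR called none of the 48 and no other transcript (0% of 13553). The adjusted p of the 48 genes lay between 0.406 and 0.995. At an unadjusted p below 0.05, 18 of the 48 were lower in mutants, or 37.5%, and 0 higher, against 4.61% and 4.18% of all transcripts. DESeq2, used as an alternative, called 7 of the 48, all lower in mutants, where it called 1.55% of all transcripts in either direction and 0.849% as lower. The median log2 fold change was -0.88 over the 48 genes and -0.01 over all transcripts. Since the genes were chosen with earlier results of these data known, these contrasts are a description and not a test. For any single gene, 3 pools against 3 limit the exact permutation test to a two-sided p of 0.1 or more.

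**Figure D1:**
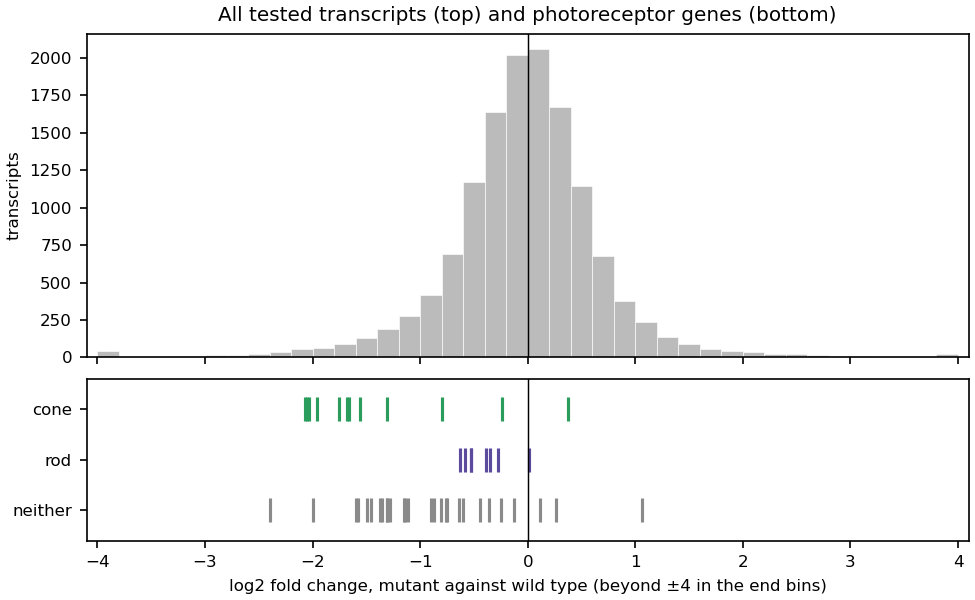
Log2 fold changes of mutants against wild types: the upper panel counts all 13553 tested transcripts in bins, the lower panel has 1 tick per photoreceptor gene by class. Cone genes spread from -2.07 to 0.37 and rod genes from -0.63 to 0.01, while the median of all transcripts is -0.01.

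The medians of the cone and rod copies differed, while their ranges overlapped. For the 12 cone genes the median log2 fold change was -1.67, a 3.18-fold lower level in mutants, and 9 of them had separated groups. The 3 cone genes with overlap were gnb3a, gngt2a and grk7b. Over the 8 rod genes the median was -0.46, or 1.37-fold lower, and saga alone had separated groups. At an unadjusted p below 0.05 there were 8 of 12 cone genes and 1 of 8 rod genes, all lower. Among the genes of neither class, 14 of 28 had mutant pools below wild types, with a median of -1.0. Over all transcripts, 9.08% had separated, lower mutant pools and 4.61% were lower at an unadjusted p below 0.05. Whether cone genes differ from rod genes was not tested, since no test was run over the members of a list.

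These counts rest in part on single libraries. Without mutant replicate 3 the 18 genes at an unadjusted p below 0.05 became 31, and without wild-type replicate 1 they became 9. Of all transcripts, 5.88% and 3.96% were lower at that p in these fits, and 2.41% to 6.47% with any 1 library left out. For the cone genes the 8 became 4 without wild-type replicate 1, 5 without wild-type replicate 2 and 5 without mutant replicate 2, and 10 without mutant replicate 3. The 1 rod gene became 3 without mutant replicate 3 and 0 without mutant replicate 1, wild-type replicate 1 or wild-type replicate 3. It also became 0 with the replicate number as a block, where 5.15% of all transcripts were lower at that p. The cone median ran from -2.45 without mutant replicate 3 to -1.16 without mutant replicate 1. The rod median ran from -0.85 to -0.09 without the same libraries, and was -0.23 without wild-type replicate 1. Cone minus rod, the difference of the medians was -1.21 with all libraries and between -1.60 and -1.07 with any 1 library left out. Separated groups were found for 9 to 10 cone genes in each case, and for 1 rod gene, except for 4 without mutant replicate 3 and 2 without wild-type replicate 2. With fewer pools in a group separation comes more easily, so these counts cannot be set against the 9.08% found with all libraries.

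**Figure D2:**
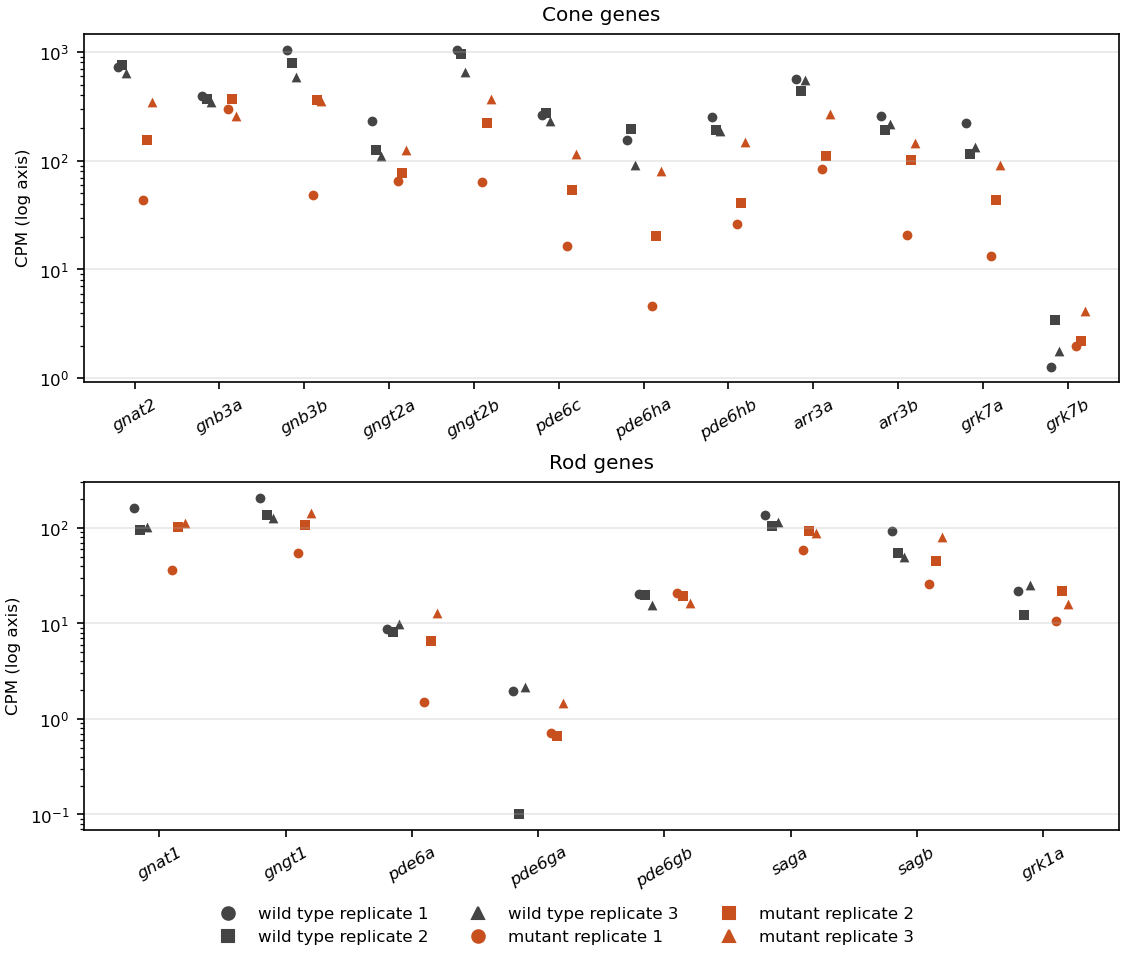
CPM on a log axis in each of the 6 libraries for the 12 cone genes (upper panel) and the 8 rod genes (lower panel); grey symbols are wild-type pools and orange symbols mutant pools, with a shape for each replicate number, and a value of 0 is drawn at 0.1. For 9 cone genes the orange symbols all lie below the grey ones, while of the rod genes this holds for saga.

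Transducin was the first step compared. The cone alpha subunit gnat2, which carries the signal from cone opsins, had 722, 751 and 635 CPM in wild types (703 ± 60.0, SD, n = 3) and 43.7, 155 and 344 CPM in mutants (181 ± 152, SD, n = 3). The log2 fold change from edgeR was -1.96 with a standard error (SE) of 0.62 and an adjusted p of 0.474. The rod alpha subunit gnat1 had 160.0, 95.4 and 103 CPM in wild types and 35.9, 101 and 112 CPM in mutants, a log2 fold change of -0.53 (SE 0.42). The gnat2 groups did not overlap, while for gnat1 mutant replicate 1 was low and the other mutant pools lay within the wild-type range.

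The beta and gamma subunits form a pair that holds the alpha subunit at the membrane. Of the gamma subunits, the cone copy gngt2b had 1040.2, 955 and 653 CPM in wild types and 63.6, 220.3 and 366 CPM in mutants, with a log2 fold change of -2.03 (SE 0.56). The rod copy gngt1 had 208, 136 and 126 CPM in wild types and 54.5, 106 and 144 CPM in mutants (log2 fold change -0.63, SE 0.37). The gngt2b pools were fully separated, while for gngt1 mutant replicate 3 lay above wild-type replicates 2 and 3. The other cone copy, gngt2a, lay between them at -0.80 (SE 0.36), with overlap at 126 CPM in mutant replicate 3 and 110.4 CPM in wild-type replicate 3. A second gngt2a transcript had 1.23 to 14.3 CPM, also with overlap.

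For the beta subunits, gnb3b had 1048, 788 and 582 CPM in wild types and 48.3, 364 and 352 CPM in mutants (log2 fold change -1.66, SE 0.65). Its copy gnb3a had 391, 365 and 344 CPM in wild types and 301, 369.9 and 259.9 CPM in mutants (log2 fold change -0.24, SE 0.20). In mammals the orthologue acts in cones and in bipolar cells. Only gnb3b had separated groups, and mutant replicate 1 was its lowest pool by far. The beta subunit gnb1a has a mammalian orthologue that pairs with rod transducin but also serves G proteins in many tissues. It had 599, 654 and 547 CPM in wild types and 232, 455 and 338 CPM in mutants. Its log2 fold change was -0.81 (SE 0.27), with no overlap. The copy gnb1b, not among the 48 genes, had 456 to 619 CPM in wild types and 291 to 1070 CPM in mutants. The gnb1b groups overlapped, with a log2 fold change of 0.03 (SE 0.47).

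The one gene with all mutant pools above the wild types was unc119b, a copy of a chaperone that carries lipid-modified transducin alpha subunits. It had 8.62, 8.05 and 8.57 CPM in wild types and 8.84, 10.1 and 11.3 CPM in mutants. The log2 fold change of 0.26 (SE 0.30, edgeR adjusted p 0.890) was smaller than its error, and the lowest mutant pool was close to the highest wild type.

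Of the phosphodiesterase genes, the cone catalytic subunit pde6c, which hydrolyses cGMP, had 262, 273 and 233 CPM in wild types and 16.6, 54.1 and 115 CPM in mutants, a log2 fold change of -2.05 (SE 0.59, edgeR adjusted p 0.431). The rod catalytic subunit pde6a had 8.65, 8.14 and 9.95 CPM in wild types and 1.51, 6.51 and 13.0 CPM in mutants (log2 fold change -0.35, SE 0.67). Every mutant pool of pde6c was under every wild-type pool, whereas the mutant pools of pde6a lay on both sides of the wild types.

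The inhibitory subunits are small proteins that hold the enzyme off in the dark. The cone copy pde6ha had 156, 197 and 91.2 CPM in wild types and 4.62, 20.2 and 80.9 CPM in mutants (log2 fold change -2.07, SE 0.87), and its second transcript was listed at 0 in all 6 libraries. For pde6hb there were 254, 192 and 188 CPM in wild types and 26.2, 40.9 and 148 CPM in mutants (log2 fold change -1.56, SE 0.59). Both were separated, and mutant replicate 3 was the mutant pool nearest to the wild types in each. The rod copy pde6gb had 20.4, 20.0 and 15.8 CPM in wild types and 21.0, 19.5 and 16.2 CPM in mutants, with a log2 fold change of 0.01 (SE 0.25), or -0.11 under scaling by total counts. Its pools covered the same range in both genotypes. The other rod copy, pde6ga, had 0 to 2.17 CPM in wild types and 0.670 to 1.47 CPM in mutants (log2 fold change -0.53, SE 1.61).

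Arrestins cap the phosphorylated opsin. The cone arrestin arr3a, known from red and green cones, had 559, 439 and 555 CPM in wild types and 84.1, 109.9 and 268 CPM in mutants. This gave a log2 fold change of -1.75 (SE 0.43, edgeR adjusted p 0.406). The cone arrestin arr3b, known from blue and UV cones, had 255, 191 and 216 CPM in wild types and 20.9, 101 and 145 CPM in mutants (log2 fold change -1.31, SE 0.58). Both cone arrestins were separated between the genotypes. The rod arrestin saga had 138, 105 and 116 CPM in wild types and 58.8, 92.5 and 88.5 CPM in mutants, a log2 fold change of -0.58 (SE 0.24) without overlap. Its copy sagb had 93.7, 54.4 and 49.8 CPM in wild types and 26.1, 44.9 and 80.4 CPM in mutants (log2 fold change -0.39, SE 0.43), so that mutant replicate 3 lay above 2 of the wild types.

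Opsin kinases phosphorylate active opsin, and recoverins are calcium sensors that restrain them. The cone kinase grk7a had 221, 116 and 134 CPM in wild types and 13.4, 43.4 and 90.6 CPM in mutants (log2 fold change -1.68, SE 0.61). The kinase copy grk1b had 53.2 to 114 CPM in wild types and 2.75 to 37.9 CPM in mutants (log2 fold change -1.58, SE 0.80). Both were separated, and mutant replicate 1 was lowest in each. The rod kinase grk1a had 12.3 to 25.0 CPM in wild types and 10.7 to 22.1 CPM in mutants (log2 fold change -0.28, SE 0.38). The second cone copy grk7b was low in all libraries, at 1.28 to 3.43 CPM in wild types and 1.98 to 4.18 CPM in mutants. These last kinases had overlapping groups.

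Of the recoverins, rcvrn2 had 1944, 987 and 937 CPM in wild types and 367, 572 and 818 CPM in mutants, a log2 fold change of -1.14 (SE 0.39, edgeR adjusted p 0.483). For rcvrn3 there were 375, 320.5 and 428 CPM in wild types and 33.5, 49.7 and 288 CPM in mutants (log2 fold change -1.60, SE 0.74). The groups of both genes were separated. In rcvrna (-1.11, SE 0.82) and rcvrnb (-0.25, SE 0.58) they overlapped. So did those of rgs9b, a copy of the GTPase activator that switches transducin off (-0.36, SE 0.36). Over the 13 arrestin, kinase and shut-off genes, 7 had every mutant pool below the wild types, against 9.08% of all transcripts. The median log2 fold change of the 13 was -1.11.

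The cyclase step restores cGMP after light. The guanylate cyclase gucy2d had 33.7, 25.1 and 58.9 CPM in wild types and 3.36, 3.08 and 22.9 CPM in mutants, with a log2 fold change of -2.00 (SE 0.80, edgeR adjusted p 0.548). Its groups did not overlap, with mutant replicate 3 close to the lowest wild type. The cyclase activator guca1b was low in all libraries, with 5.30, 2.98 and 4.91 CPM in wild types and 1.495, 1.26 and 2.03 CPM in mutants (log2 fold change -1.46, SE 0.57). Of the related activators, guca1c (10.5 to 16.3 CPM in wild types and 1.44 to 9.75 CPM in mutants) and guca1g (8.12 to 10.1 and 1.41 to 7.71 CPM) were also separated, at -1.35 and -1.31. The groups of guca1aa overlapped (3.51 to 3.96 and 1.02 to 5.62 CPM). Values for guca1d and gucy2f were at most 1.31 CPM in any library and carried standard errors of 2.55 and 2.19 on the log2 scale. With such errors a difference in either direction cannot be read from them.

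In the outer segment discs, peripherin and Rom1 are the tetraspanins that shape the disc rim. The peripherin copy prph2a had 142, 174 and 154 CPM in wild types (157 ± 15.7, SD, n = 3) and 10.2, 13.0 and 65.7 CPM in mutants (29.6 ± 31.3, SD, n = 3). Its log2 fold change of -2.40 (SE 0.68, edgeR adjusted p 0.431) was the lowest of the 48 genes. Without mutant replicate 3, which was the highest of the mutant pools, it was -3.76 with an adjusted p of 0.0229, and prph2a was then the 1 transcript called in the whole series. The copy prph2b had 325, 209 and 145 CPM in wild types and 14.5, 99.3 and 128 CPM in mutants (log2 fold change -1.49, SE 0.69). Both peripherin copies had separated groups. In rom1a (59.9 to 76.9 CPM in wild types and 25.1 to 61.3 CPM in mutants) and rom1b (26.1 to 35.8 and 9.93 to 29.3 CPM) the groups overlapped, at -0.60 (SE 0.33) and -0.75 (SE 0.39).

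In the visual cycle, rbp3, rdh8a and rdh8b, which act in or beside the photoreceptor, were lower in all mutant pools. Interphotoreceptor retinoid-binding protein, rbp3, which shuttles chromophore between cells, had 103, 68.5 and 64.9 CPM in wild types and 20.4, 39.5 and 37.6 CPM in mutants (log2 fold change -1.28, SE 0.32). The retinol dehydrogenase rdh8a, which reduces bleached chromophore in the outer segment, had 114, 66.8 and 68.5 CPM in wild types and 30.9, 36.6 and 45.1 CPM in mutants (log2 fold change -1.15, SE 0.28). Its copy rdh8b had 18.3, 16.3 and 15.2 CPM in wild types and 4.08, 4.83 and 11.1 CPM in mutants (log2 fold change -1.31, SE 0.43). All 3 were separated. With any 1 library left out, rbp3 stayed between -1.40 and -1.0 and rdh8a between -1.30 and -0.85, whereas gnat2 ran from -2.83 to -1.45.

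Of the retinoid carriers and enzymes of the supporting cells, rlbp1a was lower by less and the others overlapped. Among the latter is rpe65a, which had the lowest log2 fold change of the step. The retinaldehyde-binding protein gene rlbp1a, known from the retinal pigment epithelium, had 195, 125 and 110.5 CPM in wild types and 61.9, 84.5 and 84.8 CPM in mutants (log2 fold change -0.90, SE 0.27), without overlap. Its Müller glia copy rlbp1b had 263, 124 and 145 CPM in wild types and 78.6, 57.3 and 156 CPM in mutants (log2 fold change -0.87, SE 0.43), with mutant replicate 3 inside the wild-type range. The isomerase gene rpe65a of the pigment epithelium had 169, 99.7 and 205 CPM in wild types and 33.8, 18.3 and 131 CPM in mutants (log2 fold change -1.37, SE 0.67). The groups of rlbp1b and rpe65a thus overlapped through mutant replicate 3. The groups also overlapped for rdh5 (-0.76), the retinol dehydrogenase of the pigment epithelium, lrata (-0.64), which makes retinyl esters, and rpe65b (0.11, or -0.00 under scaling by total counts), with standard errors of 0.33, 0.56 and 0.32.

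**Figure D3:**
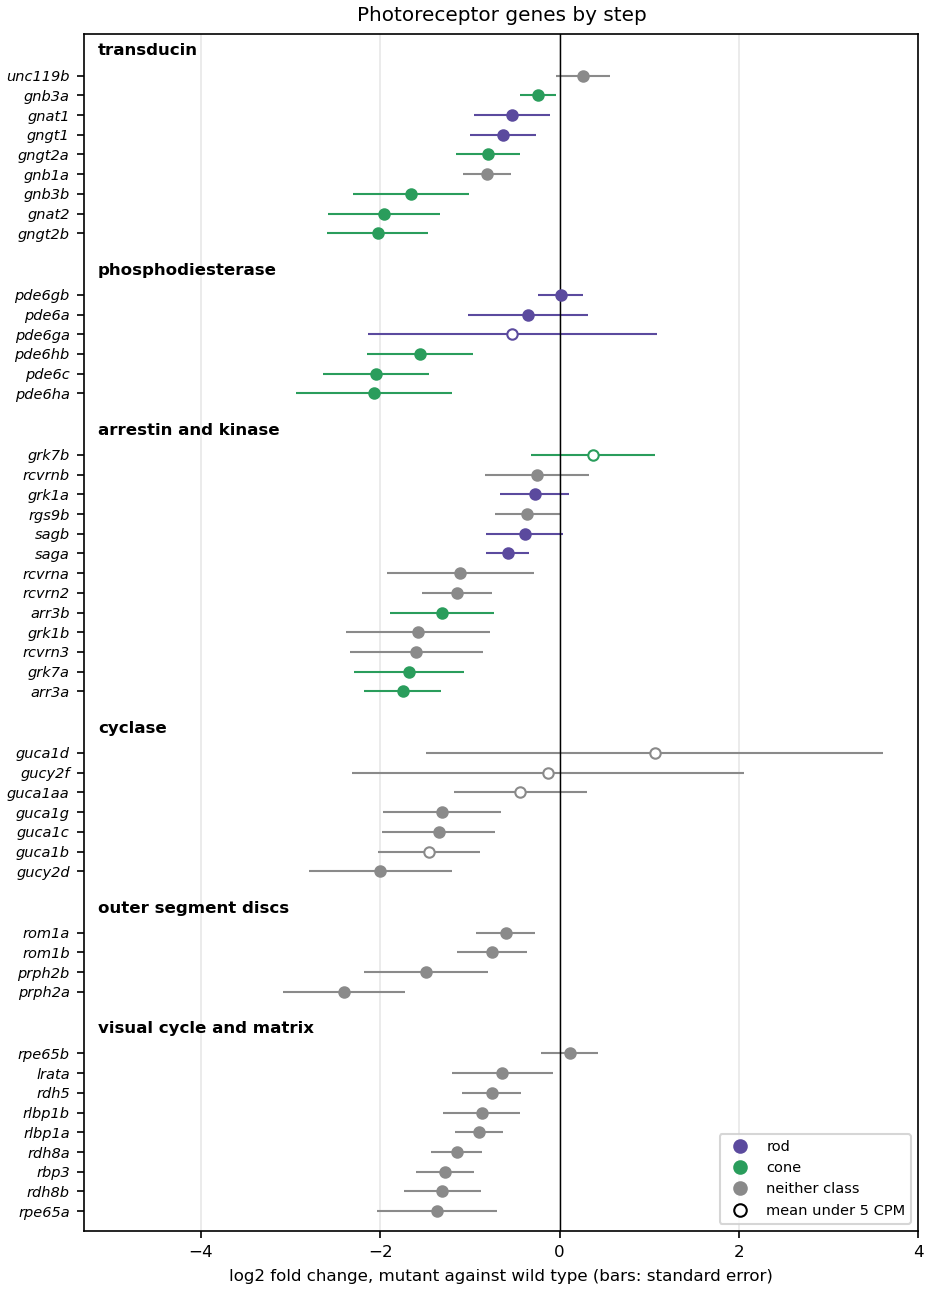
Log2 fold change of mutants against wild types (x axis) for each of the 48 genes, grouped by step, with bars of 1 standard error; colours mark rod, cone and neither class, and open symbols mark genes with a mean under 5 CPM. Values reach from -2.40 for prph2a to 1.06 for guca1d, whose bar is the longest.

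By step, the median log2 fold change was -0.80 for 9 transducin genes, -1.05 for 6 phosphodiesterase genes, -1.11 for 13 arrestin, kinase and shut-off genes, -1.31 for 7 cyclase genes, -1.12 for 4 disc genes and -0.90 for 9 visual cycle genes. The genes with separated, lower mutant pools numbered 4, 3, 7, 4, 2 and 4 in these steps, where 9.08% of all transcripts were so separated. No step had a gene that passed an adjusted p below 0.05 in edgeR. DESeq2 called 2, 1, 1, 0, 1 and 2 genes in these steps, where it called 1.55% of all transcripts. Under scaling by total counts the median of all transcripts moved from -0.01 to -0.13 and that of the 48 genes from -0.88 to -0.98, so the genes kept their distance from the rest.

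The mutant pools differed among themselves. Mutant replicate 1 was the lowest mutant pool for 34 of the 48 genes, where it was the lowest for 25.6% of all transcripts. Mutant replicate 3 was the highest mutant pool for 35 of the 48, against 36.6% of all transcripts. For the 11 cone genes with a mean of at least 5 CPM, the mean log2 level relative to the wild-type mean was -3.15, -1.70 and -0.81 in mutant replicates 1, 2 and 3, and 0.26, -0.03 and -0.23 in the wild types. For the 7 such rod genes the same measure was -1.24, -0.25 and -0.02 in mutants and 0.28, -0.21 and -0.07 in wild types. Relative to wild types, cone genes were therefore further down than rod genes by 1.91, 1.45 and 0.79 log2 units in the mutant pools. In wild types the difference of cone minus rod on this measure was -0.03, 0.18 and -0.15. These are differences of change, not of level between the classes. Summed over the 48 genes, the level was 7488 to 10599.6 CPM in wild types and 1948, 3595 and 5232 CPM in the mutant pools.

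**Figure D4:**
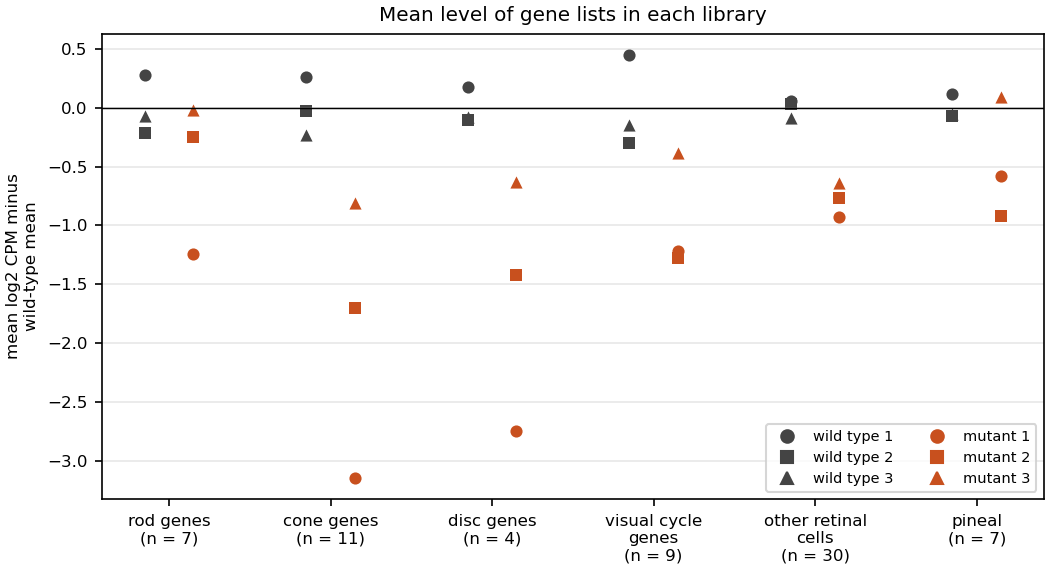
Mean log2 CPM of each gene list in each library, minus the wild-type mean, with the number of genes under each name; grey symbols are wild-type pools and orange symbols mutant pools. The cone genes reach -3.15, -1.70 and -0.81 in the mutant pools, the rod genes -1.24, -0.25 and -0.02, and the markers of other retinal cells -0.93, -0.77 and -0.64.

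A list of further photoreceptor genes, of the cascade, discs, visual cycle and other photoreceptor functions, was compared next. Of 30 tested, 25 had a lower mean in mutants, 8 had separated, lower mutant pools, 8 were lower and 0 higher at an unadjusted p below 0.05, and the median log2 fold change was -0.50. The shares over all transcripts, for this list and the lists that follow, are 50.9% with a lower mean, 9.08% with separated, lower mutant pools, 4.61% lower and 4.18% higher at that p. The groups overlapped for 22 of the 30, such as samd7 (-0.02, SE 0.40) and rdh12 (0.08, SE 0.26), and 5 had a higher mean in mutants. The genes described next had the lowest log2 fold changes of the list. The photoreceptor cadherin gene cdhr1a had 19.1 to 39.0 CPM in wild types and 3.02 to 7.26 CPM in mutants (log2 fold change -2.42, SE 0.43). The phosducin gene pdcb, whose product binds transducin beta and gamma subunits, had 183 to 214 CPM in wild types and 29.97 to 79.8 CPM in mutants (log2 fold change -1.94, SE 0.35). The retinoid transporter gene abca4a had 9.60 to 19.3 CPM in wild types and 2.30 to 5.12 CPM in mutants (log2 fold change -1.99, SE 0.46). These genes had separated groups and edgeR adjusted p-values of 0.328, 0.328 and 0.373. Their DESeq2 adjusted p-values were 0.000131, 0.00012 and 0.0137. DESeq2 called 4 of the 30 in this list, where it called 1.55% of all transcripts.

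Most markers of other retinal cells also had a lower mean in mutants, by amounts that varied. Of 30 tested (bipolar, amacrine, ganglion, horizontal and glial cells and progenitors), 26 had a lower mean, 12 had separated, lower mutant pools, and the median log2 fold change was -0.53. The groups overlapped for 17, and edgeR called 0 of the 30 on the adjusted p. DESeq2 called 1 of the 30, trpm1a, and 1.55% of all transcripts. At an unadjusted p below 0.05, 7 were lower and 1 was higher. The lower ones include the bipolar cell genes trpm1a (-1.75, SE 0.37) and grm6b (-1.31, SE 0.50), the latter the glutamate receptor of ON bipolar cells. Among them are also rx1 (-0.80, SE 0.28) and rx2 (-1.17, SE 0.46), listed here with the progenitors. Neither is exclusive to cells other than photoreceptors, so the list is not free of photoreceptor genes. Other markers of the same cells gave trpm1b at -0.00 (SE 0.28) and vsx1 at -0.24 (SE 0.24) for bipolar cells, and atoh7 at 0.81 (SE 0.49) for progenitors, all with overlapping groups. The higher one was ptf1a (1.47, SE 0.45), which is also expressed in the pancreas and hindbrain. Several of these markers, such as gad2 and calb2a, are also expressed elsewhere in the brain. Their summed level was 2890.3 to 3786 CPM in wild types and 2116 to 3626 CPM in mutants. None of these markers was at 0 in all 6 libraries. The part of the retina as a whole in the values of the photoreceptor genes was not tested.

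The pineal organ also holds photoreceptors that use part of this cascade. Of 7 pineal genes tested, 5 had a lower mean in mutants, 0 had separated groups, and the median log2 fold change was -0.33. The melatonin synthesis gene aanat2 had 15.1 to 23.3 CPM in wild types and 15.3 to 19.8 CPM in mutants (log2 fold change -0.13, SE 0.28). The summed level of the pineal genes was 52.6 to 70.6 CPM in wild types and 33.6 to 71.6 CPM in mutants, and parapinopsina and parapinopsinb did not pass the filter, with 0 CPM in 5 and 4 of the 6 libraries.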

How the data were processed

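For each pool the authors deposited expected counts per RefSeq transcript, not scaled for depth or length. The submitters' processing notes name bcl2fastq 2.20.0.422, kallisto 0.42.4 and the build danRer10; the RefSeq release is not given in the sources used here. Such counts can divide reads between similar copies. Values were rounded (15.7% to 18.2% were not whole). Symbols came from RefSeq's GRCz12tu gene table, which paired 14740 of 15455 transcripts. No transcript lengths were used, so levels are not compared between genes.

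Counts were fitted with edgeR 4.0.16 in R 4.3.3 (filterByExpr, TMM scaling, quasi-likelihood test between mutants and wild types, Benjamini-Hochberg adjustment over 13553 transcripts). The standard error is the log2 fold change divided by the square root of F. List means used log2 CPM with a prior count of 2. The test was checked on simulated counts. Nothing in the labels says that same-numbered pools share parents; same-numbered deviations correlated at -0.0911, 0.131 and 0.383. P-values set the difference between the genotypes against the spread between these pools.

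The members and lists were chosen with earlier results of these data known. Library values are given for the member of largest mean CPM in each step and class, members at an unadjusted p below 0.05, and separated members that go against their class; gnat1, pde6a, sagb, gngt2a, gnb3a, arr3b, grk1b, rcvrn3 and rpe65a were added after their values were seen, as were the genes named from the other lists. Alternatives were RLE factors, total-count scaling, DESeq2 1.42.0, limma-voom (limma 3.58.1), no filter, a filter at a mean of 5 CPM, counts added up by gene, a replicate block, other class assignments, and each library left out.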

Additional observations from a re-analysis of the deposited data

How the results depend on the processing

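The medians of the 48 photoreceptor genes and of the rod and cone copies stayed negative under every alternative run. The number of genes with every mutant pool below the wild types was 23 to 26 under the alternatives that kept all libraries. In the main fit 9.08% of all transcripts were so separated, and this share was not computed for the alternatives. The 26 came from scaling by total counts, under which the median of all transcripts was -0.13. No transcript was called under any edgeR or limma-voom alternative that kept all libraries, while DESeq2 called 210 over all transcripts. When single libraries were left out, the calls over all transcripts were 0 to 1, the genes lower at an unadjusted p below 0.05 were 9 to 31, and those with separated, lower mutant pools were 24 to 35. Of all transcripts, 2.41% to 6.47% were lower at that p in these fits, and with fewer pools in a group separation comes more easily. The median over the 48 genes then ran from -1.34 to -0.70, that of cone genes from -2.45 to -1.16 and that of rod genes from -0.85 to -0.09. The cause of these shifts was not tested. With the replicate number as a block, 22 genes were lower at an unadjusted p below 0.05, against 5.15% of all transcripts. The cone median was then -1.95. Since the numbers are not known to pair the pools, this fit changes no statement.

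Of 666 single-gene values under alternatives, 641 kept their direction and side of the threshold. DESeq2 put 7 genes past it, gnat2, gngt2b, pde6c, arr3a, prph2a, rbp3 and rdh8a, with adjusted p-values from 0.00643 to 0.0369. The sign turned in 17 values of 8 genes near 0 or at low counts. Under limma-voom these were pde6ga (1.22) and gucy2f (0.36), under the replicate block pde6ga (0.49) and gucy2f (0.04), and under total-count scaling pde6gb (-0.11) and rpe65b (-0.00). Leaving out a library gave pde6a from -1.17 to 0.17, pde6gb from -0.10 to 0.11, rpe65b from -0.03 to 0.27, rcvrnb from -0.57 to 0.21, guca1d from -0.15 to 7.87, grk7b from -0.05 to 0.86 and gucy2f from -1.46 to 1.73. In another class assignment, gnb1a, grk1b and rcvrna were also counted as rod and guca1c, guca1d, guca1g and rcvrn2 as cone, without gnb3a. The medians of rod and cone genes were then -0.53 and -1.56. Restricted to genes with a mean of at least 5 CPM, a choice made after seeing the data, they were -0.39 and -1.68. The 6 genes under that level include guca1d and gucy2f, with the largest standard errors of the 48.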
